A study of Bos taurus with 8 samples.

Results

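The IGF2BP, LIN28 and HMGA families hold genes that are active in embryo and placenta, quiet in most adult tissues and switched on again in many tumours, and are therefore called oncofetal. The 7 genes examined here, IGF2BP1, IGF2BP2, IGF2BP3, LIN28A, LIN28B, HMGA1 and HMGA2, were read from every probe that the scanner files or the accession of the probe assign to them, 14 of the 51282 probes on the array. They were chosen with the values of the same comparison in view, so their levels and differences are given as a description, with no p-value, and how many were called is counted only beside the same share over all genes. The data are 8 bovine Agilent arrays read in the single dye Cy3, with 1 RNA sample on each. Of these, 4 arrays were titled non-pregnant and described as gene expression before pregnancy, and 4 were titled pregnant and described as after pregnancy.

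What both groups share is that the labels name the tissue as fetal cotyledon, the part of the ruminant placenta that the fetus forms, the sex as female and the organism as Bos taurus. The protocol text given with all 8 samples speaks of gravid uteri of pregnant buffalo from a slaughterhouse, so by that text buffalo RNA was hybridised to probes designed for cattle. No label gives an age, a gestation stage or an animal for any sample, and p-values below therefore measure only the spread between these samples, which may be technical. The trophoblast markers went against the titles. Their summed signal was 610 to 931 times the array's 75th percentile where the label was non-pregnant and 1.90 to 8.13 times where it was pregnant, and 13 of 13 tested trophoblast markers were called lower on the latter. CDX2, PLAC1, CYP11A1 and PAG1 were not well above background on any array labelled pregnant, and PAG1 on no array at all. Of the 14 trophoblast markers, 7 were well above background on all 4 arrays labelled pregnant, at lower levels than in the other group. For that reason each group is named here only by its label. Among the arrays labelled pregnant, replicate 4 stood apart. Over all tested probes it correlated with the other 3 at 0.943 to 0.951, where those 3 correlated among themselves at 0.977 to 0.989. All 8 arrays lay on 1 slide, with each label group in a row of its own, so slide row and group cannot be told apart, and same-numbered arrays of the groups shared a slide column.

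IGF2BP proteins bind messenger RNA through RRM and KH domains and affect its stability, transport and translation, with IGF2, ACTB, MYC, CD44 and H19 transcripts among the known targets. LIN28A and LIN28B carry a cold shock domain and zinc knuckles, bind precursors of the let-7 microRNAs and block their maturation. Let-7 represses, among others, IGF2BP1, LIN28B and HMGA2. HMGA1 and HMGA2 are small chromatin proteins whose AT-hooks bind AT-rich DNA, and LIN28 proteins are known in trophoblast for a part in its growth.

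For 6 of the 7 genes, the 60-base probe nearest the transcript start is printed, because transcripts of one family could share a probe. For IGF2BP1, IGF2BP3 and HMGA1 the gene was read from another, brighter probe whose sequence is not printed. Sequences are 5′ to 3′ as the scanner files give them. Capitals mark the 52 bases that the LIN28A probe shares with another probe on the array, which the files do not assign to LIN28A by name.
IGF2BP1: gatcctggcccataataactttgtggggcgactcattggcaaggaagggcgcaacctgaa
IGF2BP2: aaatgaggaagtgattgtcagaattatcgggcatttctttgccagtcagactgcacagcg
IGF2BP3: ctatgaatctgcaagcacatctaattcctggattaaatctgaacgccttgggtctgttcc
LIN28A: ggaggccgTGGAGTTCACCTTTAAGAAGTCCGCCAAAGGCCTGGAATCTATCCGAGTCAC
Probe overlapping that of LIN28A: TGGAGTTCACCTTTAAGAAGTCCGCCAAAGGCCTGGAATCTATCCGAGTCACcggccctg
LIN28B: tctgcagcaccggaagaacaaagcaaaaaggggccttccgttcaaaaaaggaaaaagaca
HMGA1: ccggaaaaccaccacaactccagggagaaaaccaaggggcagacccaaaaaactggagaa
Between probes of different members the longest shared run was 10 bases over 80 pairs of probes. Cross-hybridisation of imperfect matches was not tested. Each of the printed member probes has at least 1 reading frame without a stop.

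The levels below are log2 of the background-subtracted signal relative to the array's own 75th percentile, so that 0 is the level of that percentile and each unit is a doubling of signal. Levels of different probes are not comparable with each other, since probes differ in how strongly they bind. A probe was tested where it was well above background, as the scanner software flags it, on at least 4 of the 8 arrays. This held for 12 of the 14 member probes and for 6 of the 7 genes. A probe that was not well above background on any array of a group has only a bound there. Its fold is given as at least the value reached against the lowest level flagged well above background on each such array. Where the probe itself read higher than that level, its own value was used. Such a bound holds for the background subtraction of the scanner software, and under normexp background correction, an alternative, the difference can be smaller than the bound. In these bulk samples fewer cells of a type and less RNA per cell cannot be told apart.

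**Figure D1:**
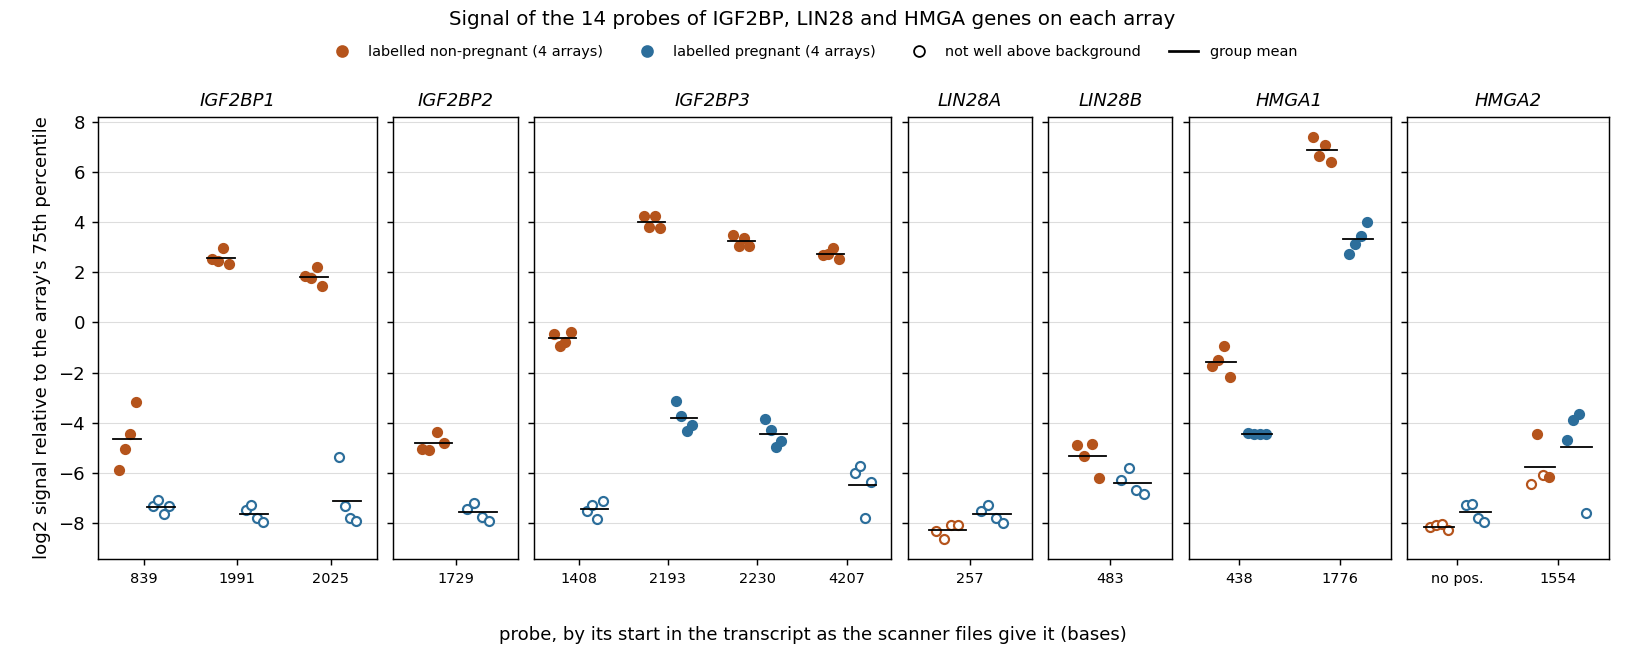
Level of the 14 probes as log2 signal over the 75th percentile of the array (y axis), placed by gene and by the start of the probe in its transcript (x axis). Points are single arrays, open where the probe was not well above background, and bars are the means of 4 arrays. IGF2BP1 and IGF2BP3 probes separate most between the label groups, LIN28A was not well above background on any array, and the mapped HMGA2 probe overlaps between the groups.

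The IGF2BP1, IGF2BP2 and IGF2BP3 transcripts were all at a lower level on the arrays labelled pregnant. None of the 8 probes of the 3 genes overlapped between the groups, where 27.6% of all tested probes lay without overlap below. Probes not well above background on any array labelled pregnant passed the filter only through the other group, so nothing is read from this count. IGF2BP1 was measured by 3 probes on the minus strand of chromosome 19 (build Btau_3.1 per the files). The probe at transcript position 1991, chr19:38708992-38709051, gave 2.52, 2.46, 2.97 and 2.32 on the arrays labelled non-pregnant. On those labelled pregnant it gave -7.46, -7.26, -7.81 and -7.96, none well above background. The 4 first arrays are tightly grouped and lie 9.58 log2 units above the highest of the others, and the means were 2.57 ± 0.28 and -7.62 ± 0.32 (SD, n = 4 each). The fitted difference was -10.19 (SE 0.23), which as a bound is at least 521-fold lower. With normexp the difference was -6.43, smaller than that bound.

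The IGF2BP1 probe at position 2025, chr19:38708958-38709017, overlaps the previous one by 26 bases and is no separate evidence of it. It gave 1.85, 1.77, 2.21 and 1.47 in the non-pregnant-labelled group against -5.38, -7.30, -7.81 and -7.91 in the pregnant-labelled group, with a difference of -8.92 (SE 0.52) and a bound of at least 265-fold lower. Its pregnant-labelled replicate 1 was the brightest of that group but not well above background. With normexp the difference of this probe was -5.70, smaller than its bound. The third probe, printed above, lies nearer the 5′ end at position 839, chr19:38716905-38716964. It gave -5.87, -5.05, -4.46 and -3.17 against -7.33, -7.08, -7.65 and -7.32. The 4 arrays labelled non-pregnant spread over more than the other IGF2BP1 probes did, with an SD of 1.13, and its pairs of spots on 1 array differed by up to 0.843 (SD). The bound from this probe was at least 3.53-fold lower, but its difference was only -0.44 with normexp, smaller than the bound. The 3 probes of IGF2BP1 had the same direction in both settings.

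IGF2BP3 was measured by 4 probes on the minus strand of chromosome 4. The probe at position 2193, chr4:33271280-33271339, was well above background on all 8 arrays, so its fold rests on measured signal in both groups. It gave 4.24, 3.81, 4.23 and 3.76 in the non-pregnant-labelled group against -3.14, -3.71, -4.31 and -4.09 in the pregnant-labelled group. The lowest of the first group lies far above the highest of the second, and the means were 4.01 ± 0.26 and -3.82 ± 0.51 (SD, n = 4 each). The fitted difference was -7.83 (SE 0.28), or 227-fold lower. IGF2BP3 signal was therefore measurable on the arrays labelled pregnant with this probe and the overlapping one at position 2230. It was not well above background there with the probes at positions 1408 and 4207. No IGF2BP1 or IGF2BP2 probe was well above background there either, but detection by different probes does not compare the genes.

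The probe at position 2230 shares 23 bases with it and gave 3.48, 3.06, 3.38 and 3.05 against -3.83, -4.27, -4.98 and -4.73, or 207-fold lower. The files give only 5 bases of genome for this probe, chr4:33269266-33269270. The probe at position 4207, chr4:33269266-33269325, gave 2.68, 2.74, 2.96 and 2.54 against -6.00, -5.72, -7.79 and -6.35, none of the latter well above background, and its bound was at least 480-fold lower. The printed probe at position 1408 has the coordinates chr4:33286820-33288439 in the files, a stretch of 1620 bases for a 60-base probe. It gave -0.47, -0.92, -0.78 and -0.37 against -7.52, -7.28, -7.84 and -7.12, and its bound was at least 56.6-fold lower. All 4 IGF2BP3 probes thus had differences between -9.20 and -6.80 in the reported setting, from the middle of the transcript to its far end. With normexp the probes at positions 4207 and 1408 were at -6.48 and -3.37, each smaller than its bound.

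IGF2BP2, the family member that is also expressed in adult tissues, had 1 probe. The files place it at chr1:83442643-83443980 on the plus strand, a stretch of 1338 bases. It gave -5.04, -5.08, -4.37 and -4.80 in the non-pregnant-labelled group against -7.44, -7.19, -7.75 and -7.91 in the pregnant-labelled group. The first 4 values were well above background but near its limit, the others were not, and the means were -4.82 ± 0.33 and -7.57 ± 0.32 (SD, n = 4 each). The fitted difference was -2.75 (SE 0.24) and the bound at least 3.1-fold lower. With normexp background correction the IGF2BP2 difference was -0.13, smaller than the bound.

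LIN28A was not detectable. Its probe, chr2:130970749-130970808 on the minus strand, gave -8.30, -8.63, -8.09 and -8.07 in the non-pregnant-labelled group against -7.51, -7.27, -7.80 and -7.98 in the pregnant-labelled group, and was well above background on 0 of the 8 arrays. The overlapping probe gave -8.17, -8.56, -8.07 and -7.40 against -7.44, -7.21, -7.74 and -7.71, and was also well above background on 0 arrays. The values on the arrays labelled pregnant are the higher ones for the LIN28A probe, as is the median level of all dim probes there, -7.77 to -7.16 against -8.46 to -8.00. The order of such values therefore says nothing about LIN28A.

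LIN28B had 1 probe, chr9:47121305-47121364 on the minus strand, spotted 2 times on each array. It gave -4.87, -5.31, -4.85 and -6.19 on the arrays labelled non-pregnant, all well above background. On those labelled pregnant it gave -6.28, -5.82, -6.69 and -6.82, none well above background. The groups overlap, since replicate 4 of the first lies below replicate 2 of the second, and the means were -5.30 ± 0.63 and -6.40 ± 0.45 (SD, n = 4 each). The fitted difference was -1.10 (SE 0.35), or 2.14-fold lower, and the bound of at least 2.12-fold lower is nearly the same value. Leaving out 1 array at a time, the difference ran from -1.39 to -0.95. With normexp background correction the difference was 0.07, so its direction depends on how background is treated.

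HMGA1 was at a lower level where the label was pregnant, and each of its 2 probes was well above background on all 8 arrays. The probe at position 1776, chr23:8609842-8609901 on the plus strand, gave 7.39, 6.62, 7.06 and 6.38 in the non-pregnant-labelled group against 2.74, 3.14, 3.43 and 3.99. Even the highest array labelled pregnant, replicate 4, lies below the lowest labelled non-pregnant, and the means were 6.86 ± 0.45 and 3.33 ± 0.52 (SD, n = 4 each). The fitted difference was -3.54 (SE 0.32), or 11.6-fold lower. The files place the printed probe at position 438 over chr23:8606578-8608563, a stretch of 1986 bases. It gave -1.72, -1.49, -0.92 and -2.16 against -4.40, -4.45, -4.43 and -4.44, a difference of -2.86 (SE 0.26) or 7.25-fold lower. HMGA1 signal thus remained well above background on the arrays labelled pregnant, as IGF2BP3 signal did with 2 of its probes.

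HMGA2 values overlapped between the groups. Its mapped probe, chr5:51886514-51886573 on the minus strand, gave -6.46, -4.43, -6.07 and -6.17 in the non-pregnant-labelled group against -4.68, -3.89, -3.65 and -7.61 in the pregnant-labelled group. It was well above background on replicates 2 and 4 of the first group and on replicates 1 to 3 of the second, and replicate 4 of the second was its lowest value. The means were -5.78 ± 0.92 and -4.96 ± 1.82 (SD, n = 4 each), and the difference was 0.83 (SE 0.85). Without pregnant-labelled replicate 4 the difference was 1.71 (SE 0.50), while leaving out each of the other 7 arrays gave 0.39 to 1.28. The other HMGA2 probe, which has no position in the files, gave -8.28 to -8.04 and -7.96 to -7.25 in the label groups and was well above background on 0 arrays. No HMGA2 fold is given.

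Counted by genes, 5 of the 6 tested members were called lower on the arrays labelled pregnant and 0 higher at an adjusted p below 0.05 (limma, Benjamini-Hochberg). Of all 13301 tested genes, 62.7% were called, 32.8% lower and 29.9% higher. Among the 5 members, LIN28B passed this threshold in only 3 of the fits that left out 1 array, and not in 5. Counted by probes, 11 of the 12 tested were called lower, where 29.1% of all tested probes were, and 10 lay without overlap below the other group, where 27.6% of all did. By genes, 4 of the 6 tested members (IGF2BP1, IGF2BP2, IGF2BP3 and HMGA1) lay without overlap below, where 31.8% of all tested genes did. Of the tested member probes, 7 were well above background on all 4 arrays labelled non-pregnant and on none labelled pregnant. These passed the filter only through the group where they are higher, so their direction was all but fixed by it. Since the members were also picked from this comparison, nothing is read from these counts. As a description of size, 114 of all tested genes (0.857%) had a difference of -7 or below, and IGF2BP1 and IGF2BP3 were among them. With normexp background correction neither was, at -6.43 and -6.76, and the share of all genes in that setting is not given here. The IGF2BP1 value also rests on readings not well above background on the arrays labelled pregnant. Detection on all 4 arrays labelled non-pregnant and none labelled pregnant held, by the brightest probe, for 3 of the 6 tested members (IGF2BP1, IGF2BP2 and LIN28B) and for 360 of all tested genes (2.71%).

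**Figure D2:**
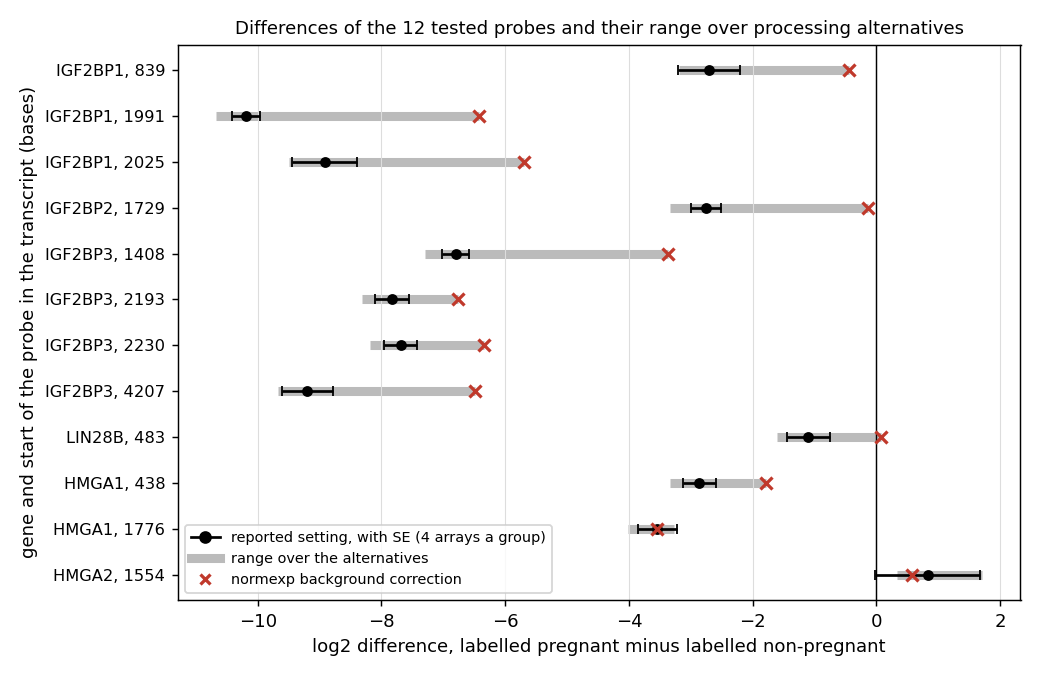
Difference of log2 level, labelled pregnant minus labelled non-pregnant (x axis), for the 12 tested probes by gene and transcript position (y axis). Points with bars are the reported values with SE over 4 arrays a group, grey bars the range over the processing alternatives, and crosses the values with normexp background correction. Normexp moved IGF2BP1 at position 1991 from -10.19 to -6.43 and LIN28B from -1.10 to 0.07, and left HMGA1 at position 1776 at -3.55.

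Background treatment changed some of the member differences. Normexp gave -6.43 for IGF2BP1, -6.76 for IGF2BP3 and -3.55 for HMGA1 on their brightest probes, against -10.19, -7.83 and -3.54 in the reported setting. On the other probes it gave -5.70 for IGF2BP1 at position 2025, -3.37, -6.35 and -6.48 for IGF2BP3 at positions 1408, 2230 and 4207, and -1.79 for HMGA1 at position 438. HMGA2 was at 0.57 with normexp. The IGF2BP1 difference averaged over its 3 probes was -7.27. Scaling to another point of each array moved all genes together. Centring on the array median shifted the median difference of all genes from -0.03 to -0.41 and the split of called genes from 52.3% lower and 47.7% higher to 65.0% and 35.0%. Without scaling the median was -0.51 and the split 68.3% and 31.7%. In the reported setting the differences of IGF2BP1, IGF2BP2, IGF2BP3 and HMGA1 exceed those shifts by far, while that of LIN28B does not exceed them by much.

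The genes that act with LIN28 on let-7 were taken as a list of microRNA processing and uridylation factors, of which 19 of 21 were tested. Of these, 8 were called lower on the arrays labelled pregnant, 5 higher and 6 were not called, with a median difference of -0.40 against -0.03 over all genes. TRIM71, a let-7 target and E3 ligase homologue of worm lin-41, fell by at least 115-fold (fitted difference -7.84, SE 0.23, limma adjusted p = 1.11e-07). It was well above background on all 4 arrays labelled non-pregnant and on none labelled pregnant, and with normexp its difference was -4.22, smaller than that bound. PRKRA, a partner of Dicer, was lower by a difference of -2.17 (SE 0.33, limma adjusted p = 0.00045). AGO2, which holds the mature microRNA and can cut its target, had -1.88 (SE 0.26, limma adjusted p = 0.000299), though its other tested probe was not called. In the other direction DICER1, which cuts the let-7 precursor and is itself a let-7 target, rose by 1.81 (SE 0.17, limma adjusted p = 2.6e-05). TNRC6A, a silencing cofactor of the Argonaute proteins, rose by 1.53 (SE 0.19, limma adjusted p = 0.000151), though its other tested probe was not called. AGO3 rose by 1.28 (SE 0.20, limma adjusted p = 0.000606), a call that ended without scaling (0.80, limma adjusted p = 0.0567). TUT4, the uridyl transferase that LIN28A recruits, was lower at -1.71 (SE 0.35, limma adjusted p = 0.00251) and was named for that role after its value was seen. TUT7, the related transferase, was at 0.00 (SE 0.22, limma adjusted p = 0.996), and the let-7 binding protein HNRNPA1 at -0.04. Levels of let-7 itself were not analysed here.

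Of the let-7 target genes, 33 of 36 were tested, and 17 were called lower, 7 higher and 9 not, with a median difference of -1.23. TRIM71, shared with the previous list, was the lowest. RRM2, a subunit of ribonucleotide reductase that is also a member of the proliferation marker list, had -6.77 (SE 0.66, limma adjusted p = 3.28e-05), or -5.57 with normexp. TGFBR1, a TGF-beta receptor, had -5.72 (SE 0.63, limma adjusted p = 6.59e-05), being well above background on only 1 of the 4 arrays labelled pregnant, and was at -2.95 with normexp. The chromatin factor ARID3B had -4.16 (SE 0.26, limma adjusted p = 2.69e-06), or -3.36 with normexp. Rises were led by the death receptor FAS at 5.83 (SE 0.83, limma adjusted p = 0.000316), the transcriptional repressor PRDM1 at 4.96 (SE 0.38, limma adjusted p = 7.98e-06) and the matrix protein THBS1 at 3.41 (SE 0.78, limma adjusted p = 0.00478). FAS was at 3.93 with normexp. MYC was not called at 0.67 (SE 0.28, limma adjusted p = 0.0658), but passed the threshold under several alternatives, for example at 0.94 with quantile normalization (limma adjusted p = 0.0135) and at 0.88 without pregnant-labelled replicate 4 (limma adjusted p = 0.0114). SMARCAD1 was at 0.02, and E2F6 at -0.07 with 2 other probes called lower. The mean of the E2F6 probes was called lower at -0.96 (limma adjusted p = 0.00347). Members of this list thus moved in both directions. Proliferation markers moved with the falls, their summed signal running from 57.6 to 76.3 times the 75th percentile in the non-pregnant-labelled group and from 6.42 to 7.48 times on those labelled pregnant, with 8 of 8 tested called lower. Their part in the result was not tested.

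Among partners and bound transcripts of the IGF2BP proteins, 24 of 25 were tested, with 8 called lower, 3 higher and 13 not, and a median of -0.33. IGF2, the transcript that gave the family its name, was high in both groups, with means of 7.81 ± 0.22 and 7.47 ± 0.24 (SD, n = 4 each). Its difference of -0.34 (SE 0.20) was not called on the brightest probe (limma adjusted p = 0.168), and of its 12 other tested probes 4 were called lower and 1 higher. Under median scaling (-0.73, limma adjusted p = 0.0332), without scaling (-0.83, limma adjusted p = 0.0137) and with quantile normalization (-0.50, limma adjusted p = 0.0345) it passed the threshold as lower. H19, the imprinted noncoding RNA next to IGF2, had -1.40 (SE 0.72, limma adjusted p = 0.121), and 1 of its 2 other probes was called lower. H19 was called lower with median scaling (-1.79, limma adjusted p = 0.0432) and without non-pregnant-labelled replicate 1 (-1.90, limma adjusted p = 0.043).

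Falls among the bound transcripts were led by the adhesion receptor CD44 at -3.25 (SE 0.48, limma adjusted p = 0.000414). IGF2R, the receptor that clears IGF2, had -2.04 (SE 0.32, limma adjusted p = 0.000567), with 2 other probes not called. YBX1, a cold shock protein found in the same particles, had -1.46 (SE 0.23, limma adjusted p = 0.000597). Those called higher included the Hedgehog effector GLI1 at 3.47 (SE 0.47, limma adjusted p = 0.000254) and the RNA-binding PURA at 1.14 (SE 0.27, limma adjusted p = 0.00608). Of 2 other PURA probes, 1 was called higher. The PURA call ended with median scaling (0.76, limma adjusted p = 0.0817) and without scaling (0.66, limma adjusted p = 0.0612). ACTB, whose transcript IGF2BP1 is known to carry to the cell edge, was at -0.08 and was called lower only without scaling (-0.56, limma adjusted p = 0.0461). MATR3 was at -0.07, while 2 of its other probes were called higher.

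IGF2BP proteins also read N6-methyladenosine (m6A) on messenger RNA. Of the 18 writers, readers and erasers of this mark, all were tested, with 5 called lower, 1 higher and 12 not, and a median of -0.08. The writer cofactor RBM15 had -1.48 (SE 0.23, limma adjusted p = 0.000587), the reader YTHDF2, which leads marked transcripts to decay, -1.13 (SE 0.28, limma adjusted p = 0.00661), and the reader HNRNPC -0.92 (SE 0.17, limma adjusted p = 0.00129). ZC3H13, a writer subunit, was the one called higher at 1.88 (SE 0.30, limma adjusted p = 0.000658). The catalytic subunit METTL3 was at -0.04 (limma adjusted p = 0.844), with 1 other probe called higher, and the reader YTHDC2 at 0.07. The other tested probe of RBM15 was not called, and 1 of the 4 other HNRNPC probes was called lower.

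**Figure D3:**
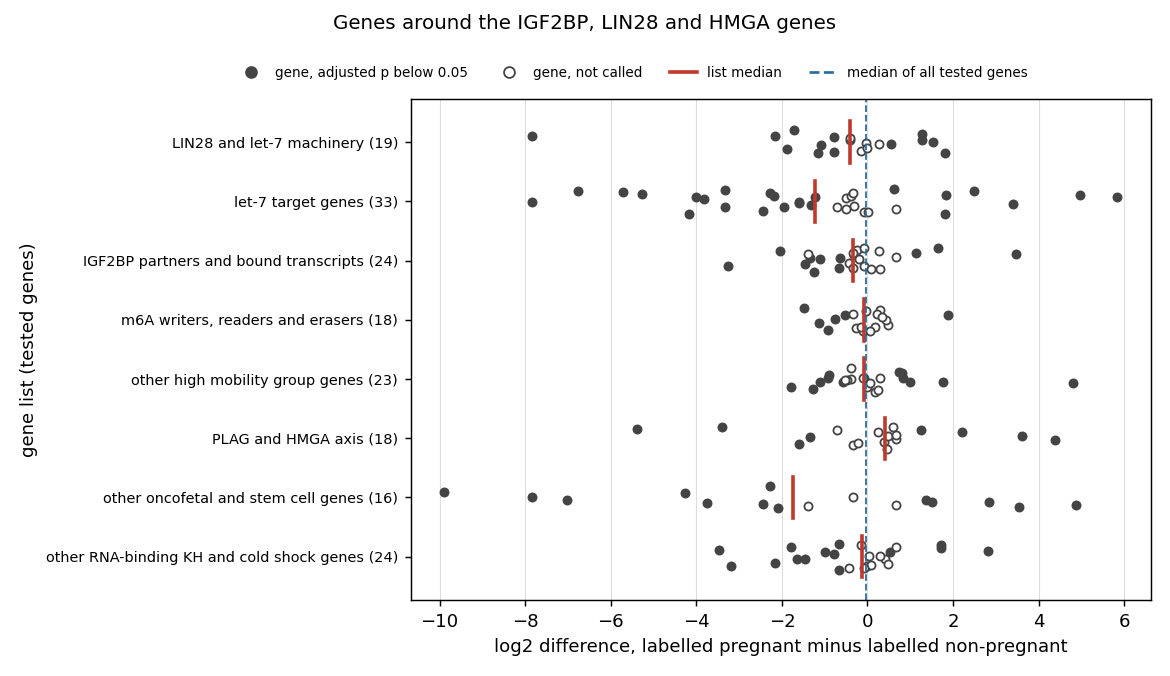
Difference of log2 level, labelled pregnant minus labelled non-pregnant (x axis), of each tested gene of the 8 lists (y axis, with the number tested). Filled points were called at a limma adjusted p below 0.05, open points were not, red bars are list medians and the dashed line is the median of all tested genes at -0.03. The median lay at -1.23 for let-7 targets and -1.75 for other oncofetal genes, and at 0.42 for the PLAG and HMGA axis.

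Other high mobility group proteins, which like HMGA bind or bend DNA, were called lower in 6 cases, higher in 6 and not in 11, of 23 tested of 24 listed, with a median of -0.07. HMG20B, part of a histone demethylase complex, had -1.78 (SE 0.19, limma adjusted p = 6e-05), the proliferation-linked HMGB2 -1.28 (SE 0.25, limma adjusted p = 0.00192), and TFAM, which packs mitochondrial DNA, -1.11 (SE 0.21, limma adjusted p = 0.00154). TOX, known from T cells, rose by 4.81 (SE 0.38, limma adjusted p = 1.03e-05), being well above background on 3 of the 4 arrays labelled non-pregnant, and was at 3.16 with normexp. HMGN3, a nucleosome-binding protein, rose by 1.77 (SE 0.28, limma adjusted p = 0.000579), and SMARCE1, a subunit of SWI/SNF complexes, by 0.99 (SE 0.18, limma adjusted p = 0.00128), a call that ended without scaling (0.50, limma adjusted p = 0.0847). HMGXB3 at -0.02 and TOX2 at 0.07 were not called.

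Of the genes linked to HMGA and PLAG proteins, 18 of 20 were tested, with 4 called lower, 4 higher and 10 not, and a median of 0.42. E2F1, which HMGA2 is known to activate through RB1, had -5.38 (SE 0.40, limma adjusted p = 7.19e-06), being well above background on 1 of the 4 arrays labelled pregnant, and was at -3.14 with normexp. The cyclin CCNA2 had -3.40 (SE 0.23, limma adjusted p = 4.33e-06), and the imprinted PLAGL1 -1.59 (SE 0.36, limma adjusted p = 0.00488). The transcription factors TWIST1 and SNAI2, known from mesenchymal cells, rose by 4.38 (SE 0.49, limma adjusted p = 7.48e-05, 3.43 with normexp) and 3.62 (SE 0.33, limma adjusted p = 2.18e-05). SNAI1, a relative of SNAI2 added after its value was seen, was not called at 0.67 (SE 0.29, limma adjusted p = 0.0718). ID1 rose by 2.20 (SE 0.54, limma adjusted p = 0.00661). SMAD3 at -0.23 and CDKN1B at 0.24 were not called, though 1 other CDKN1B probe was higher. CDKN1B was called higher with quantile normalization (0.63, limma adjusted p = 0.0282) and as the mean of its probes (0.67, limma adjusted p = 0.0154). Without pregnant-labelled replicate 4, 7 genes of this list were called higher in place of 4. Fibroblast markers moved with the rises, their summed signal being 99.3 to 229 times the 75th percentile in the non-pregnant-labelled group and 310 to 497 times on those labelled pregnant, with 4 of 7 called higher. Their part in the result was not tested.

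Further oncofetal and stem cell genes were tested for 16 of 28 listed, with 8 called lower, 5 higher and 3 not, and a median of -1.75. The de novo DNA methyltransferase DNMT3B had -9.89 (SE 0.66, limma adjusted p = 3.97e-06), or -7.10 with normexp. It was well above background on 1 of the 4 arrays labelled pregnant. DLK1, an imprinted Notch-related protein, had -7.03 (SE 0.26, limma adjusted p = 2.41e-07). TRIM71, given above, also belongs to this list. Rises were found for TPBG, the trophoblast glycoprotein also found on tumours, at 4.88 (SE 0.32, limma adjusted p = 3.53e-06), and for the stem cell RNA-binding protein MSI2 at 2.83 (SE 0.20, limma adjusted p = 5.22e-06). SALL1 was not well above background on any array labelled non-pregnant and was at least 9.19-fold higher on those labelled pregnant (fitted difference 3.55, limma adjusted p = 0.000184), but its difference was 1.25 with normexp, smaller than that bound.

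Other RNA-binding proteins with KH or cold shock domains, the fold types of IGF2BP and LIN28, were called lower in 10 cases, higher in 4 and not in 10, of 24 tested of 26 listed, with a median of -0.12. KHDRBS3 had -3.48 (SE 0.32, limma adjusted p = 2.54e-05), the cold shock protein CARHSP1 -3.19 (SE 0.24, limma adjusted p = 8.05e-06) and the germ cell YBX2 -2.15 (SE 0.32, limma adjusted p = 0.000449). YBX3 rose by 2.81 (SE 0.19, limma adjusted p = 4.34e-06), PCBP4 by 1.73 (SE 0.19, limma adjusted p = 6.35e-05) and BICC1 by 1.71 (SE 0.31, limma adjusted p = 0.00129), the latter well above background on 2 of the 4 arrays labelled non-pregnant. With normexp YBX2 was at -1.24 and BICC1 at 0.89. Of the 3 other YBX3 probes, 2 were called higher. FUBP1 was at 0.00 and NOVA1 at 0.03, but 2 other NOVA1 probes were higher and the mean of its probes was called at 2.44 (limma adjusted p = 3.93e-05). The lists overlap in some genes and were chosen with earlier results of these data known.

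For each tested member the genes with the most similar pattern were sought as those with the smallest root mean square distance over the 8 arrays, each gene centred on its own mean, among 13300 others. IGF2BP1 was nearest to C9H6orf58 (distance 0.17 log2 units), the natriuretic peptide gene NPPC (0.38) and the prolactin-related PRP6 (0.41). These 3 genes, like IGF2BP1, were not well above background on any array labelled pregnant, so their distances rest on such values there and give no order. IGF2BP3 was nearest to MYBPC3 (0.20), the trophoblast transcription factor HAND1 (0.28) and the ectonucleotidase ENTPD1 (0.32), of which HAND1 and ENTPD1, with differences of -7.52 and -7.59, were measured on all 8 arrays and MYBPC3 on none labelled pregnant. HAND1 is one of the trophoblast markers and PRP6 belongs to the placental prolactin family, but MYBPC3 and C9H6orf58 were nearer to the same members. IGF2BP2 was nearest to the spleen trypsin inhibitor gene LOC404103 (0.16), the placental homeobox gene DLX3 (0.18) and CA6 (0.20). However, IGF2BP2 and CA6 were not well above background on any array labelled pregnant. HMGA1 was nearest to NT5DC1 (0.16), the securin PTTG1 (0.20), which acts in mitosis, and TMEM181 (0.21). LIN28B was nearest to CCDC166 (0.21), LOC527428 (0.23) and ATP5MJ (0.24), and HMGA2 to COL8A2 at 0.53. LIN28B too was not well above background on any array labelled pregnant. This distance includes the difference between the label groups, which was in view when the members were chosen. For members with a large difference the neighbours therefore share its size, and nothing more is read from which genes they are.

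**Figure D4:**
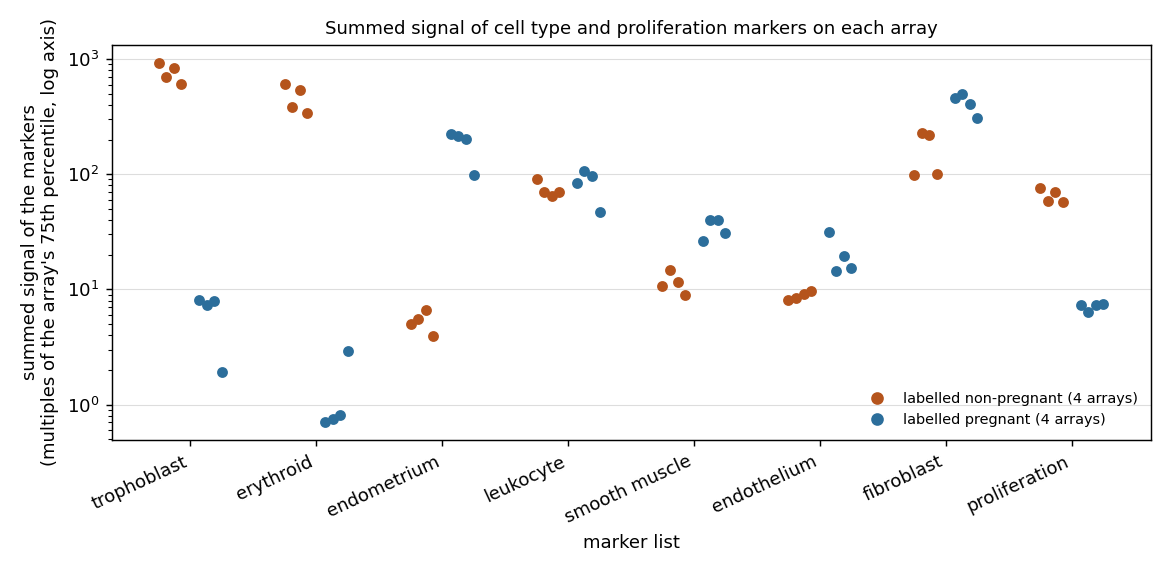
Summed signal of the markers of each list in multiples of the array's 75th percentile (y axis, log scale), by marker list (x axis), with 1 point for each of the 4 arrays a group. Trophoblast, erythroid and proliferation sums are higher on every array labelled non-pregnant, and endometrium, smooth muscle, endothelium and fibroblast sums on every array labelled pregnant, while leukocyte sums overlap.

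Several marker lists also differed between the label groups, some lower and some higher on the arrays labelled pregnant, while leukocyte sums overlapped. Erythroid markers, from nucleated or young red cells, summed to 337 to 604 times the 75th percentile in the non-pregnant-labelled group and 0.706 to 2.94 times on those labelled pregnant, with 7 of 8 called lower. HBB, HBM, ALAS2 and SLC4A1 were not well above background on any array labelled pregnant. Endometrium markers ran the other way, from 3.91 to 6.65 against 98.4 to 225 times, with 6 of 9 called higher and ESR1 and HOXD10 not well above background on any array labelled non-pregnant. Smooth muscle markers ran from 8.97 to 14.8 against 26.5 to 40.4 times (5 of 7 higher) and endothelium markers from 8.04 to 9.68 against 14.5 to 31.3 times (2 lower and 2 higher of 7). Leukocyte sums were 64.2 to 90.9 and 46.8 to 107 times, with 1 of 9 called lower and 6 higher. The part of the trophoblast, erythroid and proliferation markers in the differences of the IGF2BP, LIN28 and HMGA genes was not tested. Pregnant-labelled replicate 4 had the lowest trophoblast sum, 1.90, and the highest erythroid sum of its group, 2.94. On that array HMGA1 at position 1776 was 0.88 above the mean of the other 3 and IGF2BP3 at position 2193 differed from it by -0.37.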

How the data were processed

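The authors deposited, per the file headers, scanner output of Agilent Feature Extraction 11.5.1.1 (protocol GE1_1105_Oct12, build Btau_3.1), in which the processed intensity of a spot is background-subtracted and not scaled between arrays, with flags for spots well above background. A deposited table of log2 values correlated with log2 of these intensities at r = 0.9994 to 0.9999 and was used as an alternative. Scale and centring of that table are not stated and were inferred from its numbers (medians -4.21, -4.01, -4.00 and -3.77, and -3.56, -3.61, -3.64 and -3.61). Its 75th percentile was -0.001 to 0.001 on every array, the same centring as in the reported setting, so it is no independent alternative. Per the labels, RNA was DNase-treated, oligo-dT primed and amplified with Cy3.

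The array's 75th percentile of log2 intensity was subtracted, the 1319 control spots and 119 outlier-flagged spots were left out, and spots of 1 probe were averaged. No spot was saturated, and 53 probe values with no spot left were treated as missing. All 34627 probes that passed the background flag on 4 arrays or more were fitted with limma 3.58.1 in R 4.3.3 (lmFit, eBayes, Benjamini-Hochberg over all tested probes, threshold 0.05), and a gene was read from its brightest tested probe. Names came from the files and from RefSeq (ARS-UCD2.0, names only): 28112 probes matched by accession, 1770 by another accession, 5520 by symbol, 444 by gene ID and 149 by synonym, 12 matched several genes and 15275 kept the file's name. The scripts were tested on simulated data.

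Members and lists were chosen with earlier results of these data known. Named genes were all members, in each list the 3 largest called differences in each direction and up to 2 smallest not called, besides IGF2, H19, MYC, DICER1 and ARID3B. Some genes that this rule or the marker lists would name are not reported here. Alternatives were normexp background correction (offset 50), other scalings, quantile normalization, other filters, the mean of a gene's probes, the deposited table, leaving out each array and the replicate number as a block. The number of arrays limits the precision.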

Additional observations from a re-analysis of the deposited data

How the results depend on the processing

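Values near background limit the IGF2BP2, LIN28 and HMGA2 results. Of 104 member differences recomputed under the alternatives, 93 stayed within the spread between replicates and 10 moved beyond it without changing direction. The remaining 1 reversed: LIN28B, at 0.07 with normexp background correction. Part of the 104 could barely move. Changing the filter or adding the replicate block leaves the fitted difference of a probe as it was. The deposited table has the centring of the reported setting. The count of 93 therefore overstates how little the differences depend on processing. With normexp, 3 members were called lower in place of 5, where 31.7% of all tested genes were, against 32.8% in the reported setting. With the strict filter, which by its construction leaves out probes not well above background on every array, the number was 2. Of all genes tested there, 33.3% were called lower. Without a filter 1 member was called higher in place of 0, where 5545 of all 17279 genes were. The member that enters without the filter is LIN28A, at 0.63 (SE 0.23) on a probe well above background on 0 of the 8 arrays. The order of its values says nothing about LIN28A, as given above. Leaving out 1 array at a time gave 4 to 5 members called lower and 0 to 1 called higher, the latter without pregnant-labelled replicate 4. Of all tested genes, 29.6% to 34.0% were called lower in these fits, and 4093 of 13301 were called higher without that replicate. LIN28B passed the threshold in 3 of these fits and not in 5.

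Of the list counts, with the 75th percentile taken over detected probes 5 IGF2BP partners, 3 m6A genes, 7 genes of the PLAG and HMGA axis and 7 KH and cold shock genes were called higher, and with quantile normalization 5 IGF2BP partners, 5 m6A genes and 8 KH and cold shock genes were, with 3 other high mobility group genes lower. With median scaling 3 other high mobility group genes were higher. Without scaling 2 of them and 3 genes of the LIN28 and let-7 machinery were higher, and 14 IGF2BP partners and 8 m6A genes lower. The strict filter left 10 let-7 targets lower, and 3 other oncofetal genes lower and 3 higher. The mean of a gene's probes gave 2 m6A genes and 7 KH and cold shock genes higher. Leaving out 1 array gave 3 to 7 genes of the PLAG and HMGA axis higher, and 7500 to 8532 called genes in all. The causes were not tested.

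Same-numbered arrays of the label groups correlated in their deviations at 0.009, 0.075, 0.050 and 0.155, and the number was not taken as a pairing. Same-numbered arrays also lay in the same slide column, so a block on the number is a block on the column. With this replicate block 8106 genes were called in place of 8345, and 31.7% of all tested genes were called lower. As before, 5 members were called lower. MYC (0.67, limma adjusted p = 0.0378) and H19 (-1.40, limma adjusted p = 0.00834) passed the threshold there.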
